A study of Mus musculus with 4 samples.

Results

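IL17A was given to hepatic stellate cells with and without medium from adipose tissue-derived stem cells (ADSC medium), and the IL17A response in the medium was set against the response without it. For each gene the log2 difference between IL17A and untreated cells was subtracted from the log2 difference between IL17A plus ADSC medium and ADSC medium alone. This difference of differences is below 0 where IL17A raised a gene less, or lowered it more, in the medium, and above 0 in the opposite case. The genes were those with a RefSeq accession whose probe was well above background on all 4 arrays, and no fold change entered the choice. They number 12292 of the 26779 gene names on the arrays, and each gene is given by its brightest such probe. The cells were IMS/N, a stellate cell line taken from the livers of normal mice of strain 129/Sv, made immortal with SV40, so all groups share that background. The groups were untreated cells, recombinant murine IL17A, ADSC medium, and IL17A plus ADSC medium. The medium came from stem cells of inguinal fat of male C57BL/6J mice aged 8 to 10 weeks. Doses and times are not given in the sources used here. Each group had 1 array, so no difference here has a replicate check, no p-value can be given, and "rose", "fell", "weaker" and "higher" describe these arrays alone.

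IL17A is a cytokine made mainly by T helper cells of the type named after it. It binds a receptor of the subunits Il17ra and Il17rc, which recruits the adaptor Act1 (gene Traf3ip2) and turns on NF-kB, MAP kinases and the C/EBP factors, and it also prolongs the life of short-lived cytokine mRNAs. Stellate cells are the main matrix producers of the fibrotic liver and respond to IL17A with chemokines, IL-6 and acute phase genes.

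Slide 1 carried untreated cells and cells with IL17A, and slide 2 carried the cells with medium, alone and with IL17A. Each IL17A response was thus measured within a slide, and a shift that a slide adds to a gene on both of its arrays cancels in the difference of differences. It does not cancel where ADSC medium is set against untreated cells, or both treatments against IL17A. Between 58.1% and 60.5% of 43379 spots per array were well above background. Of 14 stellate cell markers, 9 were measured on all 4 arrays, among them Col1a1, Col1a2, Acta2, Vim and Pdgfrb. The classical stellate cell markers Lrat, Reln and Hand2 were not, and none of 8 hepatocyte markers were. Of the 9 markers of adipocytes and adipose stromal cells 4 were measured, and Cd34 and Ly6a were bright without the medium too, whereas Adipoq, Plin1, Lep and Dpp4 were well above background on no array. The difference of differences was below 0 in all 4, at -0.81 for Fabp4, -0.65 for Ly6a, -0.49 for Cd34 and -0.43 for Pi16, where 58.5% of all genes were below 0. The log2 of the summed linear signal of these 4 markers was 14.43 untreated, 14.55 with IL17A, 14.23 with medium and 13.84 with both. The brightest marker weighs most in this sum, and its part in the results below was not tested. In bulk RNA, a change in which cells are present and a change in RNA per cell cannot be told apart.

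The IL17A response of most genes was close to the same with and without the medium. The median difference of differences was -0.04, and the central 95% of genes lay between -0.85 and 0.51. Across genes the responses had a Pearson correlation of 0.648 and a Spearman correlation of 0.452. They share no array, but genes are not independent replicates. At a size of 1, a 2-fold difference, 190 genes lay at -1 or below, which is 1.55% of genes, and 54 genes at 1 or above, which is 0.439%, so that 1.99% of genes were past 1. The genes nearest the threshold were Slc2a3 (-1.003) and Olfr1143 (-1.002) just inside it and Olfr1221 (-0.996) and Mogat1 (-0.995) just outside it. On the other side Eid3 (1.01) and Igflr1 (1.02) lay inside and Oas2 and Ucn2 (both 0.97) outside. The spot-to-spot SD of a difference of differences was 0.273 for log2 levels below 5, 0.152 from 5 to 7 and 0.0750 at 7 or more. It comes from probes printed repeatedly on each array and leaves out how cultures and their RNA vary.

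**Figure D1:**
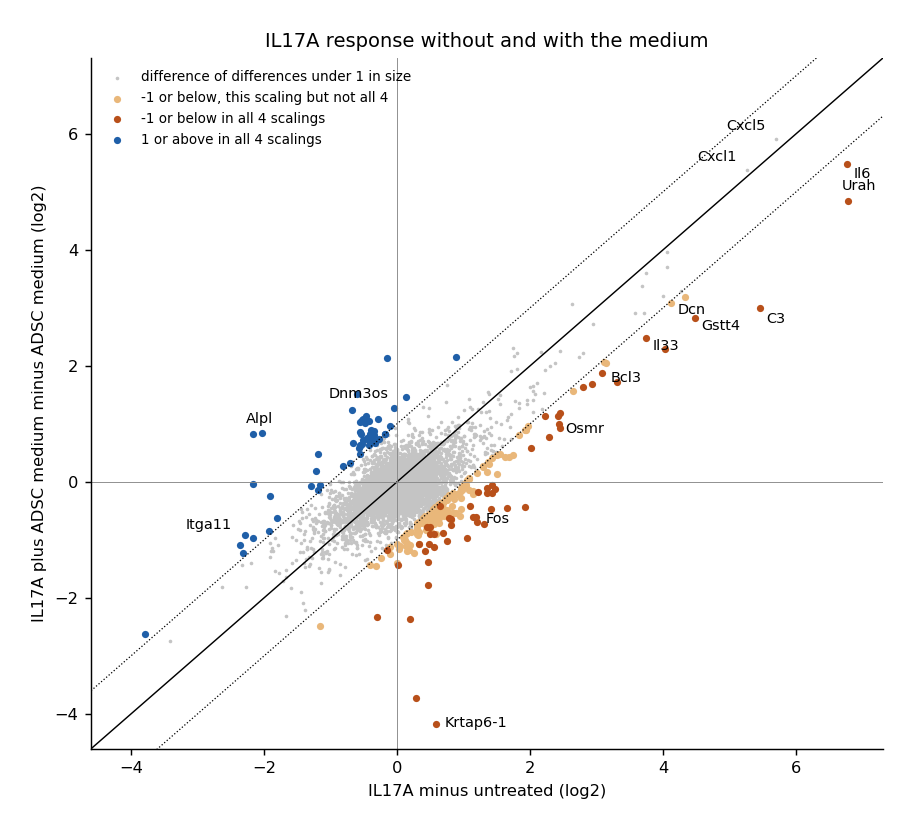
Each point is 1 of 12292 genes, with the log2 difference of IL17A against untreated on the x axis and of IL17A plus ADSC medium against ADSC medium on the y axis. The solid line marks equal responses and the dotted lines a difference of differences of 1 in either direction, and colours show whether that size was passed under quantile, 75th percentile, median and RefSeq-only quantile scaling. Among the genes with the strongest rise, Cxcl1 and Cxcl5 lie on the line and C3, Urah and Il6 below it.

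The balance between lower and higher genes depended on how the arrays were scaled, and dim genes carried that dependence. With quantile normalization over all probes 190 genes were lower and 54 higher, so that 77.9% of the genes past 1 were lower. With 75th percentile scaling 54 were lower and 122 higher (30.7% lower). With median scaling 55 were lower and 121 higher (31.3% lower), and with quantile normalization over RefSeq-named probes 78 were lower and 96 higher (44.8% lower). With normexp background correction, which adds an offset that shrinks differences of dim genes, 15 were lower and 10 higher (60.0% lower). Among the 1500 genes with a mean log2 level below 5 the median moved from -0.40 under the first scaling to 0.05 under the second. Among the 9104 genes at 7 or more it was -0.01 and -0.05, and the counts stayed at 18 lower and 15 higher against 15 and 15. No statement below therefore rests on the numbers of lower against higher genes. All 54 higher genes, but 54 of the 190 lower genes, were past 1 under all 4 scalings, normexp not among them. The descriptions below keep to those 108 genes unless a gene is said to lie outside them.

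**Figure D2:**
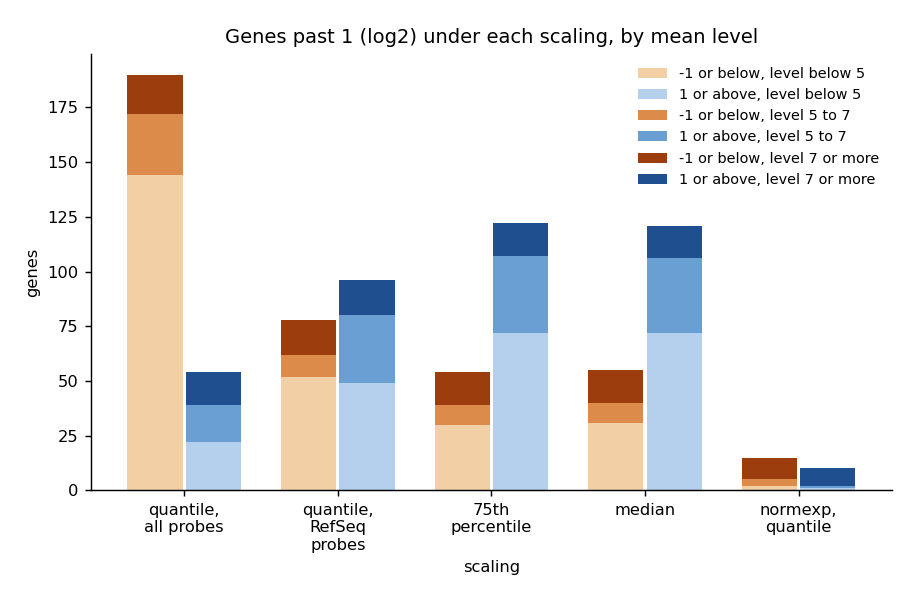
Bars give the number of genes past 1 in the log2 difference of differences, lower in orange and higher in blue, under each scaling, with darker shades for brighter genes. Under the first scaling 144 of 190 lower genes had a level below 5, and the dark segments of genes at 7 or more change little between the first 4 scalings.

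Of the 190 genes that rose 2-fold or more with IL17A without medium (1.55% of genes), 79 also did so in the medium. The median rise of the 190 was 1.42 without medium and 0.83 with it. These genes were picked by their value without medium, and such a choice alone favours a lower second value. The 103 genes that rose in the medium (0.838% of genes) had medians of 1.49 with medium and 1.80 without, and of these 18 had a difference of differences of -1 or below and 13 of 1 or above. In 64 of the 190 genes the difference of differences was -1 or below, and 32 of those were past 1 under all 4 scalings. With 75th percentile scaling 28 genes had a rise that was weaker or lost in the medium. Another 28 had a rise that was stronger in the medium or reached 2-fold only there. Of the 64, 18 still rose 2-fold or more in the medium. With quantile normalization over all probes, no gene past 1 went 2-fold or more up on one side and 2-fold or more down on the other. With 75th percentile scaling Alpl stood at -2.31 without medium and 1.07 with it, and Zfp141 at -2.17 and 1.08. Both also went 2-fold or more each way under median and RefSeq-only quantile scaling.

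Most IL-17 target genes measured on all 4 arrays rose 2-fold or more both with and without the medium. Of 30 listed genes 17 were measured on all 4 arrays, and 13 of them rose 2-fold or more without medium and 12 with it. Their median rise was 1.83 without medium and 2.30 with it, while the median of their differences of differences was -0.09. This lies between -0.09 and -0.01 under the 4 scalings and beside -0.04 over all genes. It was -0.28 when genes well above background on at least 1 array were taken, and -0.30 with no filter. Of the 17, 3 lay at -1 or below (Il6, C3 and Il33, where 1.55% of all genes did) and none at 1 or above. Chemokines, which draw leukocytes to a tissue, differed among themselves. Of the 16 measured, 8 rose 2-fold or more without medium and 5 with it. The difference of differences was below 0 in 9 of them, near the 58.5% of all genes. On the scale of log2 quantile-normalized signal, used for all levels here, Cxcl1 measured 9.76 untreated, 15.02 with IL17A, 9.08 with medium and 14.46 with both, a rise of 5.26 without and 5.38 with medium. Cxcl5 rose by 5.70 without medium and 5.91 with it. Ccl2 rose by 1.74 and 2.30, and Ccl7 by 1.80 and 2.22. Ccl8 rose by 1.96 without and 1.41 with medium, Ccl4 by 1.32 and 0.48 and Cx3cl1 by 0.85 and 0.34. The NF-kB cofactor Nfkbiz (difference of differences -0.14), the RNase Zc3h12a (-0.09), and the transcription factors Cebpb (-0.22) and Cebpd (-0.30) stood nearer to 0. Of the receptor chain, Il17ra had a difference of differences of -0.02 and Il17rc of 0.06. Traf3ip2, the adaptor, rose by 1.05 without medium and 0.52 with it.

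C3, Il6 and Urah were raised by IL17A both with and without the medium, but to a lower level in it. C3, the central component of complement, measured 5.20 in untreated cells and 10.65 with IL17A, against 5.93 with medium and 8.93 with both. That is a 43.8-fold rise without and a 7.98-fold rise with medium, and a difference of differences of -2.46, or -2.31 to -2.46 over the scalings. Il6, the cytokine that drives the hepatic acute phase response, measured 5.04 untreated, 11.80 with IL17A, 4.99 with medium and 10.47 with both. Its 108-fold rise stood against a 44.7-fold rise in the medium (-1.28, or -1.08 to -1.28 over the scalings). The levels without IL17A were nearly the same for Il6, and the array with IL17A alone was the highest. Urah, which acts in uric acid breakdown, measured 5.41, 12.19, 5.95 and 10.80 in the same order, with a difference of differences of -1.94.

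The 32 genes whose rise was weaker under all 4 scalings differed in which level had moved. In 12 of them, C3, Il6 and Urah among them, the level with both treatments was at least 1 below that with IL17A, while medium alone was less than 1 above untreated. In 14 others medium alone was at least 1 above untreated and the level with both was less than 1 below that with IL17A. The other 6 met neither condition, and none met both. These conditions compare arrays across slides, and medium and slide cannot be told apart in them. The genes named in this and the next paragraph that no list holds were chosen, after their values were seen, from the brighter of these 32. In the first kind, Blnk, an adaptor of B cell receptor signalling, measured 6.76 untreated, 9.21 with IL17A, 6.00 with medium and 7.20 with both (-1.25). Abcc3, an export pump for organic anions, measured 5.54, 7.83, 5.91 and 6.68 (-1.52).

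In the second kind medium alone already stood above untreated cells. Osmr, the oncostatin M receptor, measured 9.37 untreated, 11.79 with IL17A, 11.02 with medium and 12.16 with both (-1.28), and its other probe gave -1.61. Bcl3, a nuclear IkB protein that binds NF-kB subunits, measured 9.21, 12.30, 10.41 and 12.29 (-1.21), so that the levels on both arrays with IL17A were nearly equal. Rgs16, which shortens G protein signalling, measured 5.92, 8.37, 7.33 and 8.26 (-1.52). Il33, an alarmin cytokine, measured 4.65, 8.39, 6.17 and 8.65 (-1.26). On the linear scale the difference of differences of Il33 was above 0, at 19.4 signal units, so its direction is one of ratios and not of amounts. Gstt4, a glutathione transferase, measured 4.96, 9.44, 6.08 and 8.90 (-1.66), with -1.56 from its other probe. Ccbe1, a secreted protein of lymphatic growth, was highest with both treatments, at 3.53, 7.55, 6.77 and 9.07 (-1.73). Its linear value was also above 0, at 252 signal units. Of the genes that met neither condition, the death receptor Fas measured 6.51, 9.31, 7.19 and 8.82 (-1.17), with -1.27 from its other probe. The kinase gene Pim2, a target of STAT factors, measured 7.51, 9.74, 7.68 and 8.81 (-1.10), and its 3 probes gave -1.25 to -1.10. With normexp C3 (-1.91), Urah (-1.61), Osmr (-1.27), Il6 (-1.25), Blnk (-1.21) and Bcl3 (-1.14) stayed past 1. Gstt4 and Rgs16 (both -0.99), Abcc3 and Fas (both -0.91), Il33 (-0.39) and Ccbe1 (-0.05) did not.

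**Figure D3:**
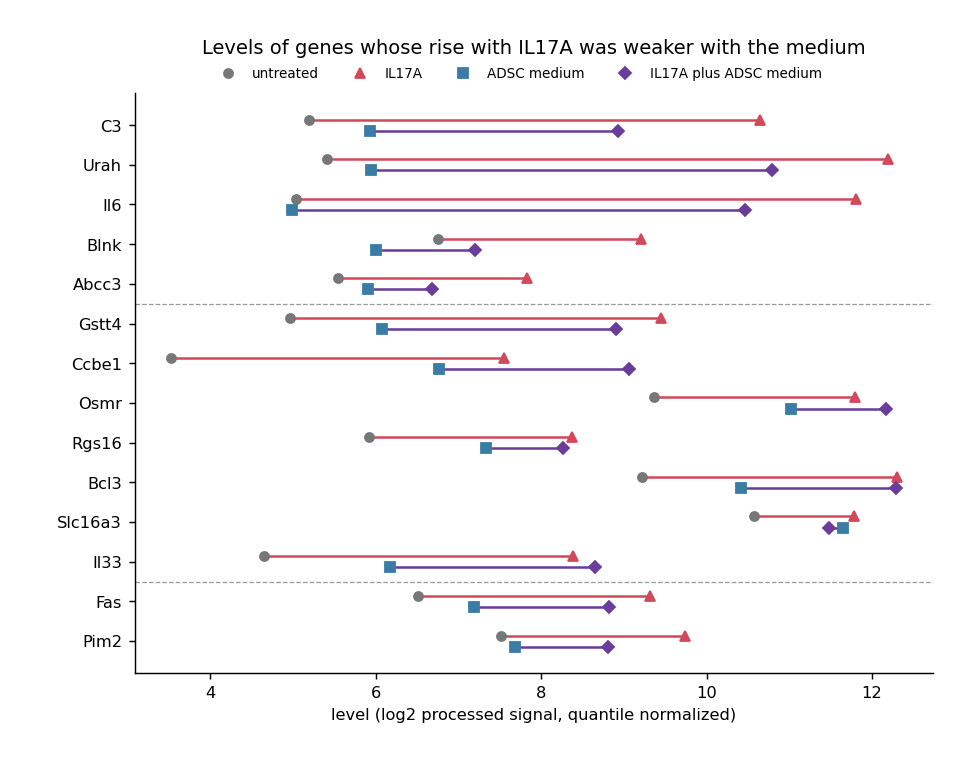
Log2 levels on the 4 arrays are shown for 14 genes past 1 under all 4 scalings, with a red line from untreated to IL17A and a purple line from ADSC medium to both treatments. Dashed lines separate genes whose level with both treatments was at least 1 below IL17A (top), genes whose level with medium alone was at least 1 above untreated (middle) and genes with neither (bottom). In the top group the purple line ends short of the red one, as for C3 (8.93 against 10.65), and in the middle group it starts further right, as for Osmr (11.02 against 9.37).

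The 250 bases before the start sites of C3 and Il6, for the first kind, and of Osmr and Bcl3, for the second, show how the known binding letters of NF-kB and C/EBP lie at genes of either kind. They are from RefSeq on GRCm38.p6 and run 5′ to 3′ on the gene's strand up to the base before the start. C3 is at chr17:57228137-57228386 on the minus strand, Il6 at chr5:30012864-30013113 on the plus strand, Osmr at chr15:6874314-6874563 and Bcl3 at chr7:19822756-19823005, both on the minus strand. Capitals mark matches to GGGA and CC with any 4 bases between them (NF-kB), TTGCNNAA (C/EBP), TGANTCA (AP-1) or TTCNNNGAA (STAT) on either strand.
C3: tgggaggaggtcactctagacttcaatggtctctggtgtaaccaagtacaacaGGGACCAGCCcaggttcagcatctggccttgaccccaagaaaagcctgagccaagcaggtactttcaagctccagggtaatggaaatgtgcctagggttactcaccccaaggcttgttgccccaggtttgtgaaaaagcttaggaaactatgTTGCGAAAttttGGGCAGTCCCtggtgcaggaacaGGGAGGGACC
Il6: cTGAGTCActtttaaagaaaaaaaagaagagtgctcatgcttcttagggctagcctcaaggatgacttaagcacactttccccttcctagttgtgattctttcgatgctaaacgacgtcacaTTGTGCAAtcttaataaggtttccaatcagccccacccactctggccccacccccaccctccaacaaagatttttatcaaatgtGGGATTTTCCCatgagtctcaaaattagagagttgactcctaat
Osmr: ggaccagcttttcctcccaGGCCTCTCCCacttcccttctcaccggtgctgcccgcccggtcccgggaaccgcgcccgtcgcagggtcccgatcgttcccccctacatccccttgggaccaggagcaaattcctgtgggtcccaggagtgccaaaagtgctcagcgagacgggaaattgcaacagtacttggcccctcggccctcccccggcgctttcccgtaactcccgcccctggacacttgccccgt
Bcl3: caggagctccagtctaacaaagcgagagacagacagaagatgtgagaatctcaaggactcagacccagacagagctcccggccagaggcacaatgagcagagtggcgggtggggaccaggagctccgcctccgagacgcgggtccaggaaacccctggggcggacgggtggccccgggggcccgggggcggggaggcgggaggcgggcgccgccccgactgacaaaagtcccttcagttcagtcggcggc
C3 held NF-kB letters beginning 197, 33 and 10 bases before the start and C/EBP letters 45 bases before it. Il6 held an NF-kB match on each strand, overlapping at 44 and 43 bases before the start, a C/EBP match at 128 bases and an AP-1 match at 249 bases. Osmr held an NF-kB match at 231 bases, and none of these letters were in the window of Bcl3. Of the 64 genes with a weaker rise, of which 32 were past 1 under all 4 scalings, 51 had a promoter in the table. The C/EBP letters were in 12 of those (23.5%), beside 8.74% of the promoters of 9816 measured genes and 9.56% of all 32851 promoter windows. The NF-kB letters were in 15 (29.4%), beside 26.0% and 17.6%, the AP-1 letters in 6 (11.8%, beside 5.55% and 6.75%) and the STAT letters in 6 (11.8%, beside 7.05% and 7.02%). The letters of the glucocorticoid receptor, GNACA and TGTNC with any 3 bases between them, were in none of the 51, beside 0.316% and 0.387%. At such low shares, their absence from 51 promoters says nothing particular of these genes. Among all 190 lower genes 153 had a promoter there. The C/EBP letters were in 20 of these (13.1%) and the NF-kB letters in 48 (31.4%). Genes that rose with IL17A without a weaker rise were not counted, so these shares are not tied to the weaker rise. A match is a description of the sequence and not a bound site.

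Acute phase and complement genes beyond C3 had weaker rises that were close to the threshold. The 11 measured C/EBP and acute phase genes had a median difference of differences of -0.38, or -0.40 to -0.32 over the scalings, with 10 below 0. Of all genes, 58.5% were below 0. Saa1, a serum amyloid A protein, measured 6.23, 7.52, 5.76 and 6.02 in the order untreated, IL17A, medium and both (-1.03). Lbp, which carries bacterial lipopolysaccharide, measured 3.28, 5.11, 3.94 and 4.74 (-1.02). Serping1, the inhibitor of the first complement component, measured 4.05, 5.19, 4.55 and 4.39 (-1.29). Saa1 and Lbp did not pass 1 under the other 3 scalings, and Serping1 passed it under quantile scaling of RefSeq-named probes at -1.03. The complement proteases C1ra (-0.04) and C1s1 (-0.15) had near-equal rises. C3ar1, a receptor for a fragment of C3, was of another kind, at 3.39, 3.80, 5.17 and 3.98 (-1.60), since its array with medium alone was the high one, and stood at -0.38 with normexp. Dcn, the proteoglycan decorin, rose by 4.12 without and 3.09 with medium (-1.03), and Il1rn, the IL-1 receptor antagonist, by 2.65 and 1.56 (-1.09). Both were under 1 in size with the other 3 scalings.

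Several listed IL17A targets had no measured baseline. Without IL17A, with or without medium, 9 listed genes were not well above background, so they have no difference of differences, although both arrays with IL17A measured them. In 7 of the 9 the level with both treatments was below that with IL17A, by 1 or more in 6. All 45 genes of the array measured in this way include the 9, and 80.0% of the 45 were below their IL17A level with both treatments, 31.1% of them by 1 or more. Among the 190 genes that rose without medium these shares were 70.5% and 22.6%, and among all members 47.5% and 1.80%. Saa3, an acute phase protein of mesenchymal cells, stood at 9.49 with IL17A and 6.38 with both. Lcn2, the iron-carrier binding protein lipocalin 2, stood at 8.00 and 5.35. Nos2, the inducible nitric oxide synthase, stood at 6.20 and 4.23. Csf3, the granulocyte growth factor, stood at 5.67 and 4.91, and Csf2, which acts on granulocytes and macrophages, at 4.97 and 5.52. These arrays lay on different slides.

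Glycolysis and hypoxia-responsive genes mostly had a difference of differences below 0. All 35 were measured, 29 were below 0 (58.5% of all genes were) and 4 lay at -1 or below (1.55% of all genes did), with none at 1 or above. Their median was -0.26, or -0.46 to -0.25 over the scalings, beside -0.04 over all genes. Their IL17A response was small on both sides, with a median of 0.34 without medium and -0.08 with it. Slc16a3, which exports lactate, measured 10.57 untreated, 11.78 with IL17A, 11.65 with medium and 11.48 with both (-1.38), so the untreated array was the low one. Ankrd37, a known target of hypoxia-inducible factor, measured 8.75, 9.20, 9.20 and 8.42 (-1.24), and the array with both was the lowest. Pdk1, the kinase that keeps pyruvate out of mitochondria, measured 8.17, 8.81, 8.36 and 7.94 (-1.06), and its other probe gave -1.09. Slc2a3, a glucose transporter, was just past the threshold and not past it in the other 3 scalings. Bnip3, a mitochondrial death and mitophagy gene, stood at -0.91 with its IL17A array high, and Egln3, an oxygen sensor, at -0.75. The abundant enzymes moved less, with Aldoa at 0.03, Gapdh at -0.14, Pgk1 at -0.26 and Ldha at -0.24. Vegfa (0.10) and Hk2 (0.15), which hypoxia also induces, did not lie below 0. The 20 housekeeping genes had a median of -0.07, and -0.17 under median scaling, where the glycolysis median was -0.46. Of the 11 measured prostaglandin and nitric oxide genes 10 were below 0 and none were past 1, with a median of -0.19.

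In the 3 largest lower values a single array stood apart from the other 3. Krtap6-1, a hair keratin-associated protein, measured 2.71 untreated, 3.30 with IL17A, 7.03 with medium and 2.85 with both (-4.77). The transcription factor Fev measured 3.59, 3.78, 6.01 and 3.64 (-2.56). Hydin, a protein of cilia, was at 6.54 with medium and fell by 3.72 when IL17A was added to it. These 3 were high on the medium array alone, and with normexp Krtap6-1 stood at -1.46 and Fev at -0.74. An array was counted as apart where its gap to the nearest other was at least the range of the remaining 3. This was so for 103 of the 190 lower genes, with the untreated array low in 30, the IL17A array high in 29, the medium array high in 22 and the array with both low in 22. It was so for 37 of the 54 higher genes, with the array with both high in 17. The share over all genes was not counted, so these counts are not read as a trait of the genes past 1. By the rule for named genes, the next largest lower values after C3 were Gpr37l1 (-2.36), Gdpd3 (-2.23), Stamos (-2.11), Plac1 (-2.03), Spns3 (-2.03) and Tcstv1 (-2.02), followed after Urah by Ak4 (-1.90), Uncx (-1.88) and Nme5 (-1.85). Of these Ak4 alone had a mean level above 5, and with normexp all 9 were under 1 in size. Fos, the immediate early transcription factor, measured 3.78, 4.97, 5.72 and 5.11 (-1.79), with the untreated array low, and -0.59 with normexp. Its relative Junb, at 12.27, 13.72, 13.64 and 14.27, also had the untreated array low, at a high level (-0.82, not past 1). Unlike Fos, Junb rose with IL17A in the medium too. Of the 25 lower genes with several measured probes, all probes agreed in direction in 23 and were all past 1 in 10. Of 10 higher genes, the probes agreed in 6 and were all past 1 in 1. Over all genes with several probes they agreed in 56.8%.

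Noncoding RNAs took up most of the bright genes whose IL17A response was more positive in the medium. This grouping was noticed after the values were seen. Among genes with a mean log2 level of 7 or more, 11 of 118 genes that the gene table does not class as protein-coding (9.32%) lay at 1 or above, against 4 of 8976 protein-coding genes (0.0446%), and none of the 118 lay at -1 or below. All 11 were lower with IL17A than untreated, by 0.11 to 0.71, and all 11 were higher with both than with medium, by 0.32 to 1.24. The choice by a difference of differences of 1 or above itself favours these opposite directions. Of all 118, 25 fell without the medium and rose with it, as did 1123 of the 8976 protein-coding genes. The median difference of differences of the 118 was -0.02, so most of them did not share the high values. Neat1, the scaffold RNA of nuclear paraspeckles, measured 12.42 untreated, 11.91 with IL17A, 11.14 with medium and 12.22 with both (1.60). Malat1, an abundant RNA of nuclear speckles, measured 13.17, 12.63, 12.18 and 13.01 (1.37), and its 4 probes gave 0.96 to 1.63. In both genes the array with medium alone was the lowest. Kcnq1ot1, the antisense RNA of an imprinted locus, measured 7.95, 7.42, 7.39 and 8.45 (1.59), with 0.73 to 1.81 over 4 probes. Dnm3os, the host RNA of a microRNA pair within Dnm3, measured 7.36, 6.68, 6.57 and 7.81 (1.92), and its other probe gave 1.64. Gas5 (1.07) and Snhg8 (1.38), which host small nucleolar RNAs in their introns, were highest with both treatments, at 8.27 and 8.33. Mir22hg (1.21), Mir100hg (1.24), Firre (1.04), Gdap10 (1.60) and Phxr4 (1.46) complete the 11. All passed 1 under all 4 scalings, and with normexp Neat1 stood at 1.60, Dnm3os at 1.42, Malat1 at 1.39 and Kcnq1ot1 at 1.26. Probes with no RefSeq accession, which are no members, moved the same way, with 979 of 4269 (22.9%) at 1 or above. Whether these RNAs and those probes shifted for a shared reason was not tested.

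The coding genes with a higher value included members of the matrix lists, Mgp, Itga11, Postn and Ogn, which IL17A lowered by less in the medium than without it. Of 156 genes that fell 2-fold or more with IL17A without medium (1.27% of genes), 16 had a difference of differences of 1 or more. In the medium 139 genes fell 2-fold or more (1.13%). Mgp, the matrix Gla protein that inhibits calcification, measured 7.36 untreated, 3.58 with IL17A, 7.22 with medium and 4.59 with both (1.15). Itga11, a collagen-binding integrin of activated stellate cells, measured 5.87, 3.59, 5.11 and 4.19 (1.36). Postn, periostin, measured 6.53, 4.72, 7.69 and 7.07 (1.19), so that IL17A alone was the low array. On the linear scale the difference of differences of Postn was -6.62 signal units, the opposite direction. Ogn, the small proteoglycan osteoglycin, measured 10.78, 8.47, 8.47 and 7.25 (1.09), and the untreated array was the high one. Alpl, the alkaline phosphatase of mineralizing cells, measured 6.44, 4.27, 3.20 and 4.02 (2.99), and Aoc3, a vascular amine oxidase, 5.37, 3.21, 3.30 and 3.27 (2.13). In both of these the untreated array was the high one and medium alone was already low. Pthlh, the parathyroid hormone-related peptide, was highest with both treatments, at 3.45, 3.30, 2.80 and 4.93 (2.29). The other coding genes among the 15 largest higher values that the rule names were Zfp141 (2.87), Pcsk2 (2.12), Wfikkn1 (1.68), Dact1 (1.59), Fst (1.498) and Samd5 (1.401), and Wfikkn1 alone of these had a mean level above 5. With normexp Ogn (1.24) and Alpl (1.14) stayed past 1, while Aoc3 stood at 0.61, Pthlh at 0.57, Itga11 and Postn at 0.42 and Mgp at 0.31.

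**Figure D4:**
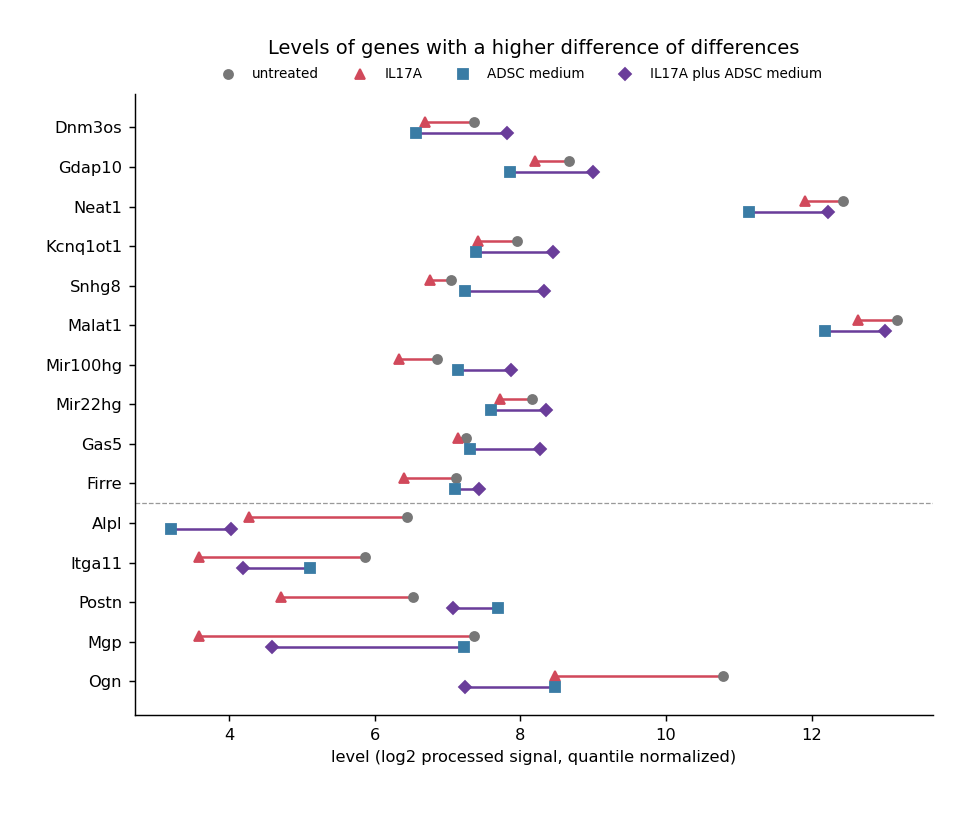
Log2 levels on the 4 arrays are shown for 10 noncoding RNAs (top) and 5 coding genes (bottom) with a difference of differences of 1 or above under all 4 scalings, with the same symbols and lines as for the weaker rises. In the noncoding RNAs the red line runs down from untreated to IL17A and the purple line runs up from medium to both, as for Neat1 (12.42 to 11.91 and 11.14 to 12.22), and in Mgp both lines run down.

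The matrix lists as wholes moved little. The 19 measured collagens had a median of 0.18, with 14 above 0 and none past 1, where 58.5% of all genes were below 0. Col1a1 fell by 0.88 with IL17A without medium and by 0.41 with it (0.47), and Col1a2 by 0.90 and 0.72 (0.18). The 25 stellate activation genes had a median of 0.11, with 2 at 1 or above, Itga11 and Postn, and none at -1 or below. Acta2, the smooth muscle actin by which myofibroblasts are known, stood at -0.09, Timp1 at -0.09 and Ccn2 at 0.43. The 25 proteoglycans and matricellular genes had a median of 0.11, with Dcn at -1.03 and 3 genes at 1 or above. The interferon response genes, 34 measured, had a median of 0.09 and none past 1. Of 638 genes in the 31 lists 25 lay at -1 or below and 4 at 1 or above, beside 1.55% and 0.439% of all genes. The median of the 16 measured chemokines was -0.27 but 0.00 under 75th percentile scaling, and that of the 21 Wnt and Notch genes was -0.04 and 0.14, so the direction of both depends on the scaling.

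**Figure D5:**
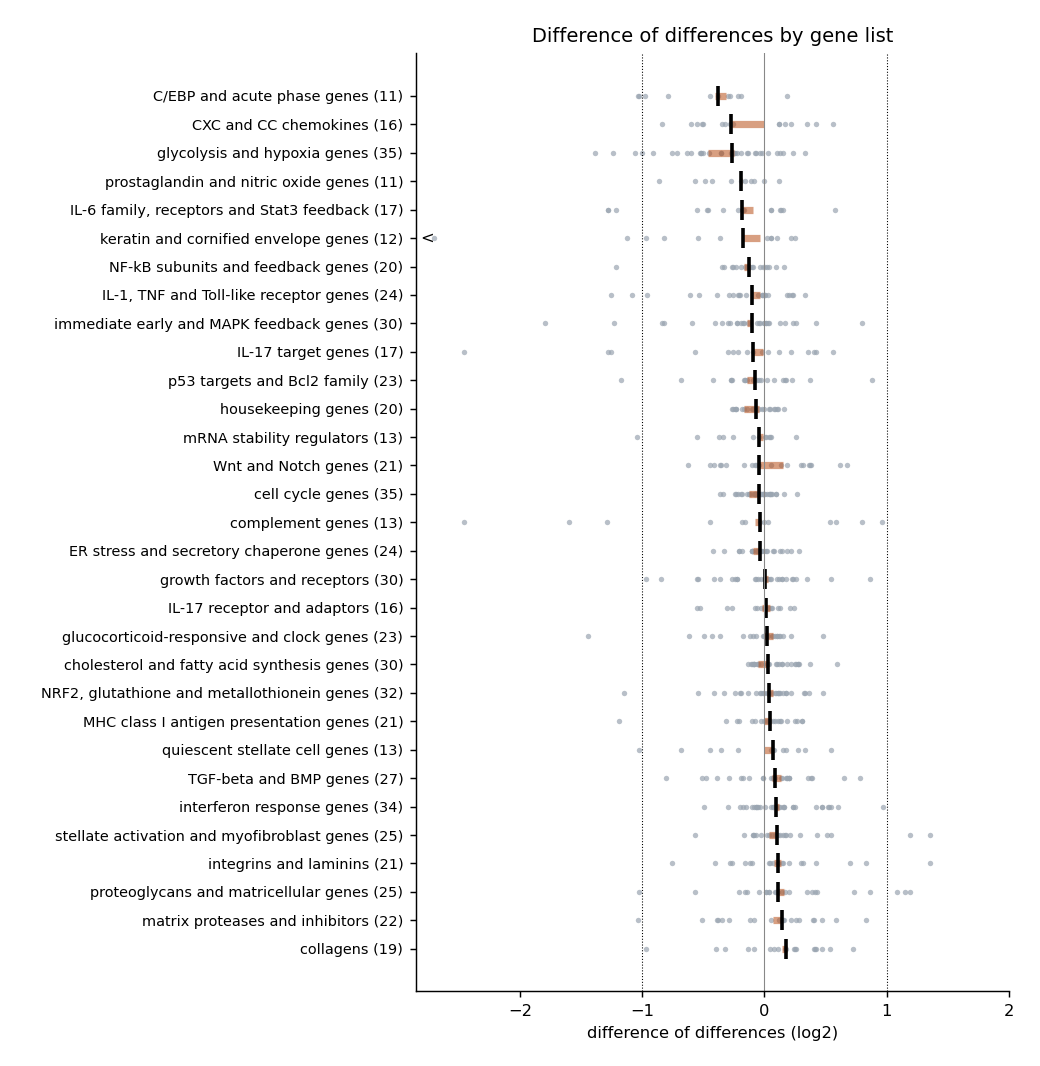
Each grey point is the log2 difference of differences of a measured gene of the list named on the y axis, with the number measured in brackets. The black mark is the list median under quantile normalization and the orange bar its range over the 4 scalings. Dotted lines mark a size of 1, and the sign "<" stands for Krtap6-1, drawn at the edge although its value is -4.77. The medians of C/EBP and acute phase genes (-0.38) and of glycolysis and hypoxia genes (-0.26) keep their sign over the scalings. So do those of many other lists, collagens and housekeeping genes among them, while the bar of the chemokines reaches 0.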

How the data were processed

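Total RNA of 4 cultures was labelled with Cy3 by linear amplification, per the labels' protocols, and hybridized to Agilent 1-colour mouse arrays read with Feature Extraction 12.1.1.1, per the file headers. The deposited intensity values are processed signals, background-subtracted within each array and not normalized between arrays, per the file headers. Mean and background intensity columns, also deposited, were used for normexp. Score columns, deposited with them, mark each spot with 0 or 1 as well above background, as saturated or as an outlier. The submitters' processing notes name R 3.5.1, and the design text says that the authors applied quantile normalization.

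No spot was saturated. After control spots and 91 to 126 outlier spots an array had been removed, log2 processed signals were quantile normalized over all other probes. Repeated spots entered as their mean. Of 28510 probes with a RefSeq accession, 28315 were named through the GRCm38.p6 gene table and 18706 (65.6%) were well above background on all 4 arrays. A gene took its brightest such probe. Genes past a difference of differences of 1 were counted, with no test, because 1 array a group leaves no residual and the number of arrays limits the precision.

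The members, the 31 gene lists, the markers and the motifs were chosen with earlier results of these data known. The text names, from the largest down, the 15 largest differences of differences in each direction, up to 6 members past 0.5 of each list and 12 IL-17 targets, the receptor chain and the largest IL17A responses. Clone names and genes whose probes disagreed were left out of the first part. Of the genes outside the rule, the brighter weaker rises that no list holds and the noncoding RNAs were chosen after their values were seen. Other list members outside the rule, such as Gapdh, Acta2, Col1a1 and Nfkbiz, are named with no set criterion.

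Alternatives covered the scaling, background correction, filter on dim probes, probe choice and threshold. The calculation was tested on simulated data. Python 3.11.15, pandas 2.3.3, NumPy 2.4.6 and matplotlib 3.10.9 were used, with limma 3.58.1 in R 4.3.3 for normexp.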

Additional observations from a re-analysis of the deposited data

Results flagged for a closer look

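In 12 named genes IL17A went one way without the medium and the opposite way with it, by at least 0.5 in log2 on each side in the main setting. Named genes were chosen in part by the size of the difference of differences, which favours opposite directions. The share over all genes was not counted. With 1 array a group these differences were not tested. The difference of differences was -4.77 for Krtap6-1, -2.03 for Plac1, -2.02 for Tcstv1, -1.90 for Ak4 and -1.79 for Fos, which rose without the medium and fell with it. It was 2.99 for Alpl, 2.87 for Zfp141, 2.12 for Pcsk2, 1.92 for Dnm3os, 1.60 for Neat1, 1.59 for Dact1 and 1.59 for Kcnq1ot1, which fell without the medium and rose with it. Of the 12, Neat1, Dnm3os and Kcnq1ot1 had a mean log2 level of 7 or more. With 75th percentile scaling some fell short of 0.5 on 1 side. Krtap6-1 stood at 0.30 and Neat1 at -0.499 without medium, and Fos at -0.45 and Plac1 at -0.48 with it. With normexp Neat1 and Dnm3os kept 0.5 on both sides and the others did not.

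Probes without a RefSeq accession, which are no members and entered the normalization and an alternative only, were at 1 or above in 22.9% of those well above background on all 4 arrays, or 979 of 4269. Among probes with a protein-coding accession the share was 0.354%, and among those with a noncoding one 7.08%.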

How the results depend on the processing

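No paired analysis was possible because each group had 1 array and no replicate number, and for the same reason no replicate could be left out. With 75th percentile scaling 54 genes were lower and 122 higher, in place of 190 and 54, and with median scaling 55 and 121. Under these, weaker rises numbered 28 and 28 (64 in the main setting), weaker falls 38 and 38 (16), stronger rises 28 and 26 (13) and stronger falls 8 and 9 (30). Weaker here includes lost, and stronger includes genes that rose or fell 2-fold or more only in the medium. In the main setting the median IL17A response without medium was -0.46 for the 13 and 0.15 for the 30. With RefSeq-only quantile scaling the numbers were 78 and 96, and 36, 28, 23 and 12 in the same order, with an IL-17 target median of -0.014. With normexp they were 15 and 10, and 10, 2, 1 and 4, with an array apart in 16 genes (140 in the main setting) and a target median of -0.21. Genes brighter than the median gene gave 4 and 2, and 3, 0, 1 and 1, with 4 arrays apart and a target median of 0.12, on the other side of 0. Genes above background on at least 1 array gave 566 and 412, and 216, 228, 139 and 176, with 684 arrays apart and a median of -0.28. No filter gave 1152 and 702, and 464, 382, 221 and 377, with 1338 arrays apart and a median of -0.30. Probes of any name gave 543 higher genes, with 53 weaker falls, 174 stronger rises and 415 arrays apart. Coding accessions alone, an alternative chosen after seeing the data, gave 6 stronger rises. A 1.5-fold threshold gave 714 and 223, and a 4-fold threshold 10 and 5. The cause of these shifts was not tested beyond the levels given above. On the linear scale 187 of 190 lower genes and 53 of 54 higher ones kept their direction, and of the genes named in the text Ccbe1 (252 signal units), Il33 (19.4) and Postn (-6.62) did not. With normexp 12 of the 190 and 9 of the 54 stayed past 1. Signal over background limits what can be said of genes below a log2 level of 5.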

Other observations

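The authors' deposited table of probes higher with IL17A and lower with IL17A plus ADSC medium holds 1193 probes, and 588 of them were well above background on all 4 arrays with a RefSeq accession. Their median difference of differences was -0.32, with 75 at -1 or below and 1 at 1 or above. The authors' deposited table of probes higher with IL17A than untreated holds 861 probes, of which 360 passed the same filter, with a median of -0.56, 81 at -1 or below (22.5%) and 1 at 1 or above. Both tables were chosen from the same arrays by the IL17A level, which also enters the difference of differences, so these counts are no independent evidence of its direction. The table with lower values under both treatments compares arrays across slides.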
